A study of Mus musculus with 2 samples.

Results

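The cells described here are retinal cells that carried transcripts of at least 3 of 7 genes, Igfbpl1, Klhl35, Nhlh2, Spsb4, Socs2, Megf11 and Neurod2, called the rule genes. They also carried fewer than 2 of 6 genes of amacrine and horizontal precursors (Ptf1a, Prdm13, Lhx5, Neurog1, Ripply3, Chodl) and fewer than 2 of 5 genes of further differentiated neurons (Ebf3, Lamp5, Lrfn5, Zfp804a, Ina). A gene counted as detected with at least 1 UMI, a unique molecular identifier that stands for 1 captured mRNA molecule. The rule was met by 451 of the 8814 barcodes with at least 500 genes, and these are called the Igfbpl1/Nhlh2 cells in the text and rule cells in the plots. The cells were thus selected on detection of these 18 genes, and the levels of the rule genes in them are a description and not a finding.

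The study profiled single cells of the peripheral retina at postnatal day 8, the area where the retinal alpha-Cre transgene is active, from mice in which Cre removes the floxed retinoblastoma gene. The DKO_Skp2het library came from alpha-Cre, Rb f/f, p107-/-, Skp2+/- mice, which the labels call tumor-resistant. The DKO library came from alpha-Cre, Rb f/f, p107-/- mice, which the labels call tumor-prone. Both thus carried alpha-Cre, floxed Rb and the p107 deletion and differed in the loss of a copy of Skp2, which encodes the F-box subunit of a ubiquitin ligase that marks the cell cycle inhibitor p27 for destruction. Each genotype had 1 library, so no difference between the genotypes has a replicate check, no test was possible, and every interval given covers counting error only. The number of animals in each library is not given in the sources used here.

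Newborn retinal neurons leave the cell cycle, switch on basic helix-loop-helix (bHLH) transcription factors and build a neuronal cytoskeleton before they take on a final type. Nhlh2 and Neurod2 encode bHLH factors of young neurons, Igfbpl1 a secreted protein related to the insulin-like growth factor binding proteins, and Klhl35 a member of the kelch-like family. Spsb4 and Socs2 encode proteins with a SOCS box, which recruits a ubiquitin ligase, and Socs2 is known as a brake on growth hormone signalling. Megf11 encodes a transmembrane protein known for the regular spacing of starburst amacrine and horizontal cells. The retinoblastoma protein and p107 hold back the E2F factors that drive S phase, so cells that lack both can keep dividing while they differentiate.

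On the GENCODE annotation of the mm10 assembly, Igfbpl1 lies on chromosome 4 from 45809468 to 45826923, Nhlh2 on chromosome 3 from 102010076 to 102015492, and Neurod2 on chromosome 11 from 98325415 to 98329648. Klhl35 lies on chromosome 7 from 99466004 to 99474022, Spsb4 on chromosome 9 from 96943482 to 97018843, Socs2 on chromosome 10 from 95385362 to 95417180, and Megf11 on chromosome 9 from 64385626 to 64709205. The start regions of 4 of the 7 rule genes are shown because a pair of the rule genes encode bHLH factors, whose family binds the E-box CANNTG. Each run holds 300 bases of RefSeq sequence, 250 before and 50 after the annotated start, on build GRCm38.p6, read on the strand of the gene, with E-boxes in capitals.
Nhlh2, chr3:102009895-102010194, plus strand: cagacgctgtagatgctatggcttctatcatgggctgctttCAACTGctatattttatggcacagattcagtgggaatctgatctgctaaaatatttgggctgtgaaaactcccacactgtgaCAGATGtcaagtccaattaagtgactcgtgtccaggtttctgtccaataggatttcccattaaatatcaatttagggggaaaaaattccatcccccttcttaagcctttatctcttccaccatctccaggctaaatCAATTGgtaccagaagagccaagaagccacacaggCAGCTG
Neurod2, chr11:98329596-98329895, minus strand: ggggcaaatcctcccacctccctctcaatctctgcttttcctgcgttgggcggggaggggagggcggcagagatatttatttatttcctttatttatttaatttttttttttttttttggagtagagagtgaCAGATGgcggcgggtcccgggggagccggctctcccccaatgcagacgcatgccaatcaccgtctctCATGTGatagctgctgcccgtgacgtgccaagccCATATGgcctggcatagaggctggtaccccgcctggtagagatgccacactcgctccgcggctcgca
Klhl35, chr7:99465754-99466053, plus strand: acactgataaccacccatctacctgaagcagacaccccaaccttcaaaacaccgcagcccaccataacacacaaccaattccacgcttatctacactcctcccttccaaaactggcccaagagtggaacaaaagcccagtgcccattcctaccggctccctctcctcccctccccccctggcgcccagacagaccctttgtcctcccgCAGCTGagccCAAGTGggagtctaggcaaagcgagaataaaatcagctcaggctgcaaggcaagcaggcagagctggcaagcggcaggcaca
Spsb4, chr9:97018306-97018605, minus strand: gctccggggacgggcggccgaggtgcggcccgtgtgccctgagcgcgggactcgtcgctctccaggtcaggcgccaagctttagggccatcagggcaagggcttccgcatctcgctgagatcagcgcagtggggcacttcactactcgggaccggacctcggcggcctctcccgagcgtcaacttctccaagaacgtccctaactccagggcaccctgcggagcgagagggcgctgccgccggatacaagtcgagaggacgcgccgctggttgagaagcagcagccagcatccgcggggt
CANNTG reads the same on both strands, so 1 search covers both. Nhlh2 had 4 such words, Neurod2 3, Klhl35 2 and Spsb4 0. Of all 32851 promoters of the same length, 72.3% held at least 1 and 39.6% at least 2, while 6.49% held as many as Nhlh2 and 17.6% as many as Neurod2. A match is a stretch of letters and not evidence of binding.

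The DKO_Skp2het library held 5194 barcodes with at least 500 genes and 25766024 UMIs over all its barcodes, with a median of 3874 UMIs per barcode. The DKO library held 3620 such barcodes and 24413761 UMIs, with a median of 4939. No DKO barcode had fewer than 3420 UMIs, and 78 of the DKO_Skp2het Igfbpl1/Nhlh2 cells (33.5%) lay below that depth. The libraries shared 30 barcode sequences, 1 of them an Igfbpl1/Nhlh2 cell in both. Skp2 in the Igfbpl1/Nhlh2 cells had 57.4 CPM (counts per 1000000 UMIs) in DKO_Skp2het and 72.7 CPM in DKO, a ratio of 0.790 (95% interval 0.577 to 1.08), against a ratio of 0.705 in all other cells. The 3′ tags of Rb1 and Rbl1 (p107) need not lie in the deleted exons and check neither deletion.

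The Igfbpl1/Nhlh2 cells made up 233 of 5194 cells in DKO_Skp2het, 4.49% (exact binomial interval 3.94 to 5.08), and 218 of 3620 cells in DKO, 6.02% (5.27 to 6.85). The ratio of shares was 0.745 (0.617 to 0.90). Megf11 and Neurod2, which help define the cells, had levels more than 1.5-fold apart between the libraries within them, so the shares say what the rule picked and not how many cells of a type were present. Igfbpl1/Nhlh2 cells had a median of 3759 UMIs and 1762 genes in DKO_Skp2het and 5054 UMIs and 2159 genes in DKO. At a common minimum depth of 3420 UMIs the ratio was 0.783, with 2 rule genes sufficing it was 0.80, and without the exclusion lists it was 0.624.

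The exclusion lists removed most of the cells that passed the rule genes. At least 3 rule genes were detected in 672 DKO_Skp2het cells (12.9%) and in 750 DKO cells (20.7%). The list led by Ptf1a, a bHLH factor that commits precursors to amacrine and horizontal fates, set aside 183 DKO_Skp2het and 298 DKO cells. The list led by Ebf3, a transcription factor of differentiating neurons, set aside a further 256 DKO_Skp2het and 234 DKO cells. The set-aside cells were thus more numerous than the 451 kept, and 270 DKO_Skp2het and 220 DKO cells stood just outside the other edge with exactly 2 rule genes. Membership also moved with depth: when every cell was randomly reduced (thinned) to 1500 UMIs before the rule was applied, 254 DKO_Skp2het and 230 DKO cells passed, and only 121 (51.9%) and 99 (45.4%) of the original cells of each library were among them.

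The rule genes overlapped in the same cells to different extents. Nhlh2 was detected in 86.7% of DKO_Skp2het and 83.9% of DKO Igfbpl1/Nhlh2 cells, against 5.77% and 10.5% of microglia marker cells of the same libraries, which should lack it and show the background of free RNA. Igfbpl1 was detected in 70.4% of the DKO_Skp2het and 70.2% of the DKO cells, against 1.92% and 5.26% of the microglia marker cells. Microglia marker cells numbered 52 in DKO_Skp2het and 38 in DKO, with median depths of 6638.5 and 8978.5 UMIs, above those of the Igfbpl1/Nhlh2 cells. Nhlh2 and Igfbpl1 were found together in 62.2% of DKO_Skp2het and 61.9% of DKO Igfbpl1/Nhlh2 cells. Socs2 was detected in 82.0% and 78.0%, Spsb4 in 70.8% and 84.4%, Neurod2 in 66.5% and 61.9%, and Klhl35 in 55.4% and 59.2% of DKO_Skp2het and DKO cells. Megf11 was the rule gene seen in the fewest cells, 32.2% of DKO_Skp2het and 22.9% of DKO, against 0 of 52 DKO_Skp2het microglia marker cells, where 3 counts of the total set a limit of 5.77% on cells with a UMI, and 2.63% of those of DKO. The rule genes were not particular to the cells kept. In cells set aside by the Ebf3 list, Nhlh2 had 1042 CPM in DKO_Skp2het and 976 CPM in DKO. The Igfbpl1/Nhlh2 cells had 712 and 620 CPM of it. The median log2 difference of the 7 rule genes, Igfbpl1/Nhlh2 cells minus these set-aside cells, was 0.10 and -0.08. Against the cells set aside by the Ptf1a list it was 0.24 and 0.03.

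The cells met the rule with different margins. In DKO_Skp2het, 59 cells had exactly 3 rule genes, 54 had 4 and 120 (51.5%) had 5 to 7. In DKO, 54 cells had exactly 3, 49 had 4 and 115 (52.8%) had 5 to 7. Igfbpl1 stood at 539 CPM in DKO_Skp2het and 396 CPM in DKO cells with 5 to 7 rule genes, but at 91.6 and 61.6 CPM in the cells with 3. Nhlh2 was at 910 and 844 CPM in the cells with 5 to 7 rule genes of DKO_Skp2het and DKO, and at 418 and 225 CPM in those with 3. The number of rule genes follows from these levels and from depth, so this gradient describes how the rule sorts the cells.

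Within the Igfbpl1/Nhlh2 cells, each of the 7 rule genes had more CPM in DKO_Skp2het than in DKO. Megf11 had 87.8 CPM in DKO_Skp2het and 48.5 CPM in DKO, a ratio of 1.81 (1.33 to 2.47). Neurod2 had 304 CPM in DKO_Skp2het and 199 CPM in DKO, a ratio of 1.53 (1.31 to 1.79), and was past 1.5-fold in 4 of 15 other settings, with a lowest log2 difference of 0.30. Igfbpl1 had 354 and 257 CPM and Socs2 415 and 294 CPM in DKO_Skp2het and DKO, with Nhlh2 at 712 and 620 CPM. In all other cells 6 of the 7 lay lower in DKO_Skp2het, with Igfbpl1 at a ratio of 0.716 and Nhlh2 at 0.748, while Megf11 stood at 10.7 CPM in both libraries. That pool includes the cells set aside by the exclusion lists, in which each of the 7 was higher in DKO_Skp2het. Igfbpl1 had 324 CPM in DKO_Skp2het and 252 CPM in DKO cells set aside by the Ptf1a list. In those set aside by the Ebf3 list it had 324 and 255 CPM. The higher levels were thus not particular to the Igfbpl1/Nhlh2 cells. A shallower cell needs a higher CPM to show 3 rule genes, and the part of depth in these ratios was not tested.

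**Figure D1:**
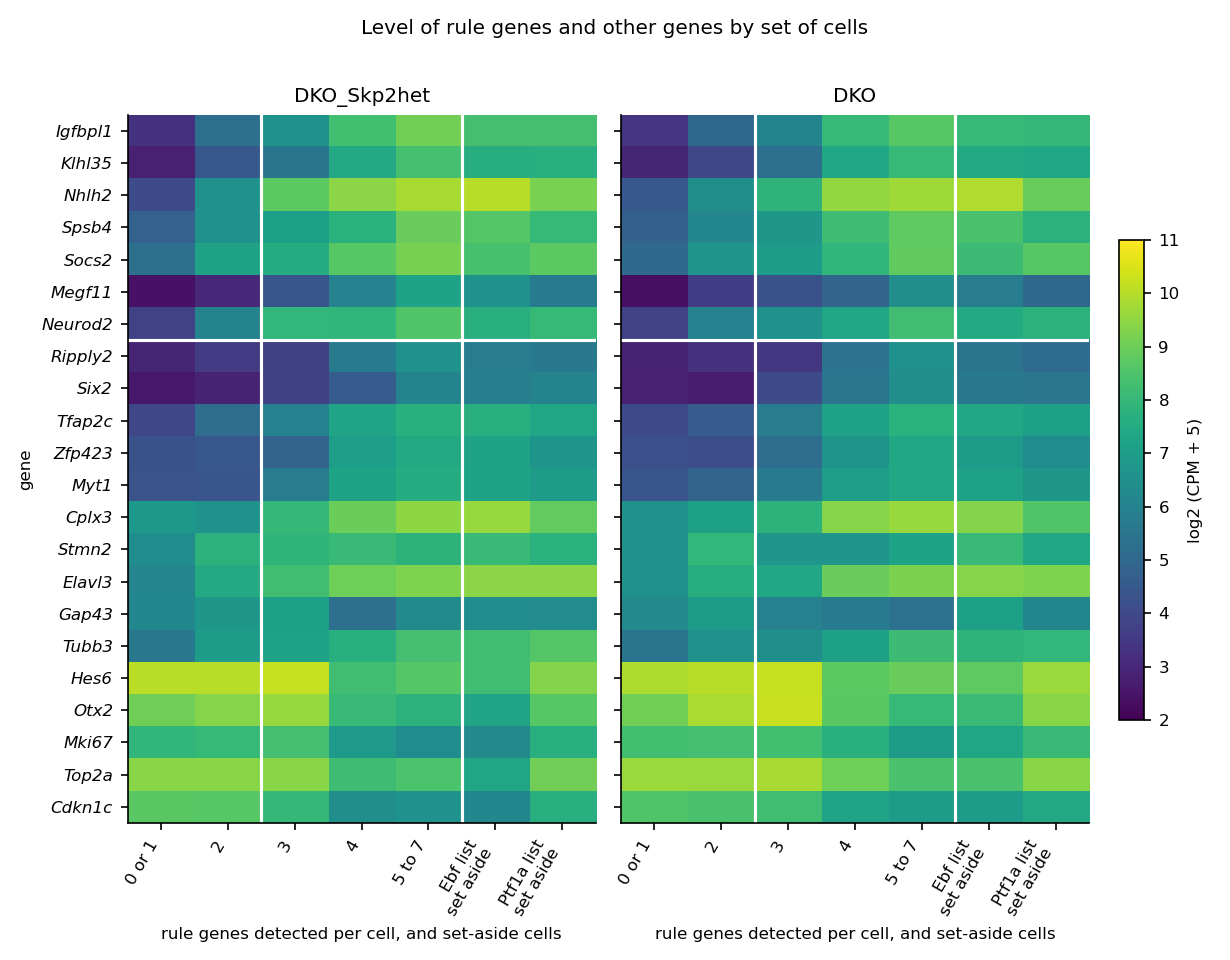
Level of the 7 rule genes (above the white line) and 15 other genes as log2 (CPM + 5), in colour, in sets of cells of DKO_Skp2het (left) and DKO (right). Columns run by the number of rule genes detected, with the Igfbpl1/Nhlh2 cells between the white lines and the set-aside cells to their right; Hes6 and Otx2 are bright in the columns for 2 and 3 rule genes and darker in those for 4 and for 5 to 7, and Ripply2, Six2 and Zfp423 run the other way.

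The label of immature neurons was checked against 8 markers, Dcx, Stmn2, Sox4, Sox11, Elavl3, Elavl4, Tubb3 and Gap43. Their summed level was 5695 CPM in DKO_Skp2het and 5175 CPM in DKO Igfbpl1/Nhlh2 cells, against 2696 and 3185 CPM in all other cells. After thinning to 1500 UMIs, at least 3 of the 8 were detected in 70.4% of DKO_Skp2het and 66.5% of DKO Igfbpl1/Nhlh2 cells, against 20.1% and 24.4% of all other cells and 0% and 5.26% of microglia marker cells. Most of the sum came from Sox4 and Sox11, transcription factors of newborn neurons. Sox4 stood at 2186 CPM in DKO_Skp2het and 2177 CPM in DKO Igfbpl1/Nhlh2 cells, against 1418 and 1551 CPM in all other cells, and Sox11 at 2326 and 2119 CPM against 736 and 975 CPM. Of the 8 markers 6 were higher than in all other cells in both libraries, 3 of them past 1.5-fold in both. Among all 6899 genes with at least 50 UMIs, 2451 were higher in both libraries and 191 past 1.5-fold in both. Stmn2 in DKO was lower than in all other cells, at 120 against 148 CPM. The neighbouring cells set aside by the exclusion lists carried the markers at least as often, with 3 of the 8 in 84.2% of DKO_Skp2het and 76.8% of DKO cells set aside by the Ptf1a list and in 77.3% and 70.9% of those set aside by the Ebf3 list. In both libraries 5 of the 8 were lower in the Igfbpl1/Nhlh2 cells than in those set aside by the Ebf3 list, and 1 was higher. The counts were also 5 and 1 against the cells set aside by the Ptf1a list, though the genes need not be the same. Of all genes measured there, 2474 of 7295 and 2718 of 8335 were lower. The markers thus do not set the Igfbpl1/Nhlh2 cells apart from these neighbours. Microglia, endothelial and astrocyte lists had no Igfbpl1/Nhlh2 cell with 3 of their genes, but the astrocyte list held 3 genes in all. Its member Pax2, a paired box factor, had 22.2 CPM in DKO_Skp2het and 26.9 CPM in DKO, against 6.28 and 11.5 CPM in all other cells. At least 3 of 14 ganglion cell genes were detected in 0 DKO_Skp2het and 2 DKO Igfbpl1/Nhlh2 cells, and the list summed to 103 and 99.6 CPM, against 144 and 120 CPM in all other cells. The microglial genes C1qb and P2ry12, the glial gene Gfap, and the ganglion cell genes Pou4f2, Sncg and Slc17a6 had 0 UMIs in the Igfbpl1/Nhlh2 cells of both libraries, where 3 counts of the total set the limit that a count of 0 allows, 2.46 CPM in DKO_Skp2het and 1.96 CPM in DKO.

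The label held less well for cells with 3 rule genes. In these the immature neuron markers summed to 3895 CPM in DKO_Skp2het and 3506 CPM in DKO, against 7106 and 6483 CPM in cells with 5 to 7. A list of photoreceptor and bipolar precursor genes summed to 4197 CPM in DKO_Skp2het and 5721 CPM in DKO cells with 3 rule genes, against 2395 and 2690 CPM in those with 5 to 7. Otx2, a factor that directs precursors to photoreceptor and bipolar fates, had 774 and 1195 CPM in the 3-gene cells of DKO_Skp2het and DKO, against 214 and 254 CPM in those with 5 to 7. Txnip, which encodes a thioredoxin-binding protein, had 663 and 344 CPM in the 3-gene cells and 32.1 and 32.4 CPM in those with 5 to 7. In the excluded cells with 2 rule genes the precursor genes summed to 3707 CPM in DKO_Skp2het and 5003 CPM in DKO. Core proliferation genes summed to 4779 and 5764 CPM in the 3-gene cells and to 4631 and 5920 CPM in those with 2. Otx2, Txnip and other genes named for sets of cells within the rule were picked after their values were seen.

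**Figure D2:**
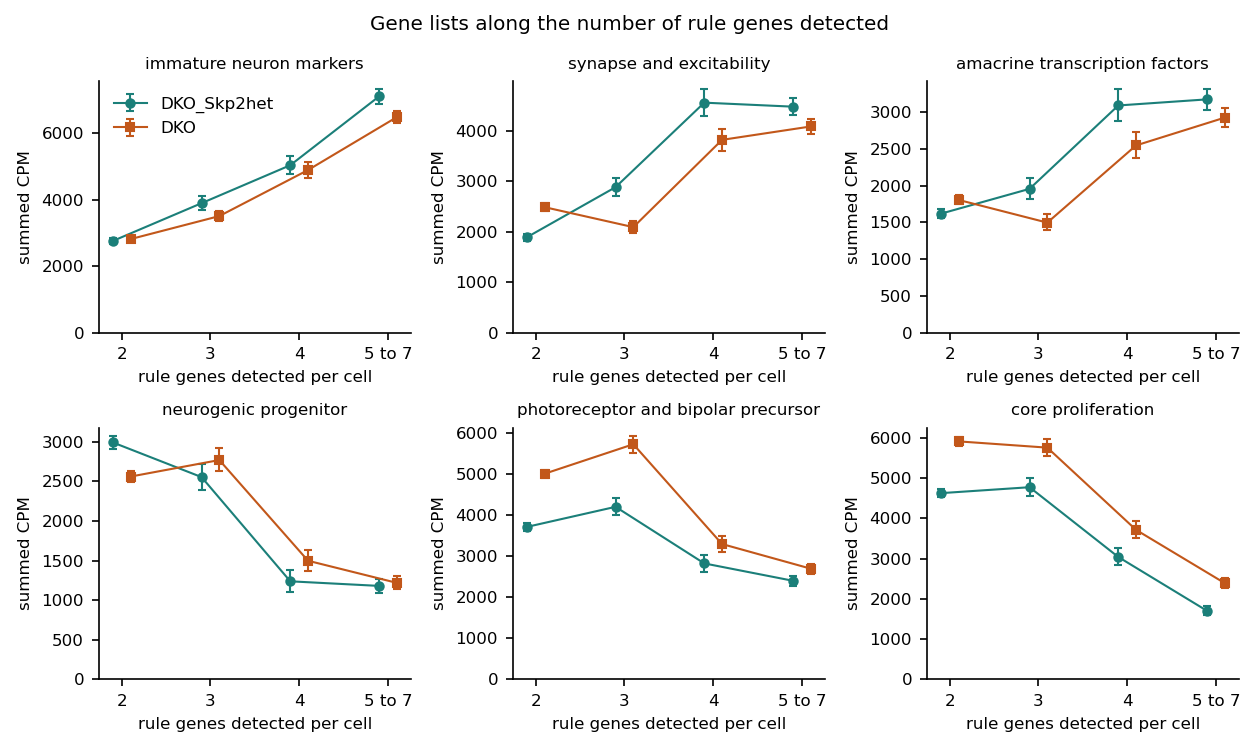
Summed CPM of 6 gene lists against the number of rule genes detected per cell, for DKO_Skp2het (circles) and DKO (squares), with exact Poisson intervals that cover counting error only. Immature neuron markers go up with each step to 7106 and 6483 CPM, and core proliferation genes come down from the 3-gene cells to 1701 CPM in DKO_Skp2het and 2390 CPM in DKO with 5 to 7 rule genes; cells with 2 rule genes are not Igfbpl1/Nhlh2 cells.

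Of 6899 genes with at least 50 UMIs in the Igfbpl1/Nhlh2 cells of both libraries together, 191 (2.77%) were at least 1.5-fold higher in them than in all other cells in both libraries, and 207 (3%) at least 1.5-fold lower, on the CPM + 5 scale used for every such count. These counts follow from the choice of cells and are given as background. Ripply2, which encodes a transcriptional repressor known from segmentation of the embryo, led with 57.4 CPM in DKO_Skp2het and 49.8 CPM in DKO, against 9.50 and 10.5 CPM in all other cells. Six2, a homeobox gene, had 36.9 and 51.1 CPM against 9.25 and 12.4 CPM. Tfap2c, a member of the AP-2 family that marks amacrine lineages, had 147 and 142 CPM against 37.5 and 49.0 CPM. Neither of them was confined to the Igfbpl1/Nhlh2 cells: cells set aside by the Ebf3 list had Six2 at 52.9 and 45.4 CPM and Tfap2c at 195 and 161 CPM in DKO_Skp2het and DKO, and those set aside by the Ptf1a list had Six2 at 60.7 and 41.0 CPM. Zfp423, a zinc finger gene that works with the Ebf factors, had 117 and 103 CPM against 30.03 and 34.4 CPM, and Myt1, a zinc finger gene of neuronal differentiation, had 137 and 117 CPM against 32.3 and 43.2 CPM. Cells set aside by the Ebf3 list had Zfp423 at 142 and 116 CPM and Myt1 at 143 and 137 CPM. They had Ripply2 at 51.5 and 39.2 CPM, so these genes were not confined to the Igfbpl1/Nhlh2 cells either.

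The other leading genes included a synaptic one. Cplx3, a complexin of retinal synapses, had 527 CPM in DKO_Skp2het and 567 CPM in DKO, against 188 and 209 CPM in all other cells and 775 and 644 CPM in those set aside by the Ebf3 list. Trp53i11 had 278 and 262 CPM against 69.4 and 86.7 CPM, Lhfp 357 and 295 CPM against 92.4 and 114 CPM, and Tmem91 50.1 and 41.3 CPM against 10.6 and 11.1 CPM. Cells set aside by the Ebf3 list had Trp53i11 at 270 and 237 CPM and Lhfp at 530 and 426 CPM. Tmem91 was lower there, at 40.8 and 39.2 CPM. Those set aside by the Ptf1a list had Lhfp at 422 and 309 CPM. The remaining genes of the leading 15 were Mfap4, Smpd3, Ppp2r2c, Nckap5, Ubash3b and Scg2. Scg2, a secretogranin, rested on 10 DKO_Skp2het and 14 DKO cells, and 71 of its 131 DKO UMIs came from 1 cell.

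Amacrine-type genes were common in the cells although the Ptf1a list had set aside many of their neighbours. At least 3 of 20 amacrine transcription factors were detected in 63.5% of DKO_Skp2het and 60.6% of DKO Igfbpl1/Nhlh2 cells after thinning, against 23.5% and 29.9% of all other cells. In the neighbouring cells set aside by the Ptf1a list the shares were 69.4% in DKO_Skp2het and 65.8% in DKO. Those set aside by the Ebf3 list had 71.1% and 66.7%, so these factors do not set the Igfbpl1/Nhlh2 cells apart from them. Summed, the 20 factors had 2787 CPM in DKO_Skp2het and 2378 CPM in DKO Igfbpl1/Nhlh2 cells. Exclusion genes remained within the allowance, with 1 gene of the Ptf1a list in 105 DKO_Skp2het and 112 DKO cells and 1 gene of the Ebf3 list in 145 and 134 cells. Prdm13, a repressor that acts after Ptf1a in amacrine precursors, was the main one, in 36.1% of DKO_Skp2het and 36.7% of DKO cells, against 5.77% and 7.89% of the microglia marker cells. Ptf1a itself was detected in 2 DKO_Skp2het cells and 1 DKO cell. Ina, a neuronal intermediate filament gene of the Ebf3 list, was detected in 32.2% of DKO_Skp2het and 30.3% of DKO cells, against 5.77% and 5.26% of the microglia marker cells. Rod genes were not above the rest, at 2865 CPM in DKO_Skp2het and 2816 CPM in DKO against 3560 and 3305 CPM in all other cells, and free rod RNA cannot be told apart from transcription in these cells.

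The Igfbpl1/Nhlh2 cells were next set against the neighbouring cells that the lists had set aside, as a description, since the lists divided them. Against the cells set aside by the Ebf3 list, 10 of 11 measured neurogenic progenitor genes were higher in the Igfbpl1/Nhlh2 cells in both libraries, with median log2 differences of 0.84 in DKO_Skp2het and 0.68 in DKO, and so were 19 of 26 core proliferation genes (0.58 and 0.21), beside 2301 of all 7295 genes measured there. Synapse genes were lower, with medians of -0.51 and -0.52. Otx2 had 395 CPM in DKO_Skp2het and 596 CPM in DKO Igfbpl1/Nhlh2 cells, against 149 and 276 CPM in the cells set aside by the Ebf3 list. Against the cells set aside by the Ptf1a list, genes of inhibitory transmission were higher (medians 0.70 and 0.56) and 22 of 26 core proliferation genes lower in both libraries (medians -0.34 and -0.30), beside 2718 of all 8335 genes measured there.

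Fewer Igfbpl1/Nhlh2 cells carried proliferation transcripts in DKO_Skp2het than in DKO. A cell was called dividing with at least 3 UMIs of 26 core proliferation genes, none of them a rule gene, after thinning to 1500 UMIs. This held for 44 of 233 DKO_Skp2het cells, 18.9% (14.1 to 24.5), and for 85 of 218 DKO cells, 39.0% (32.5 to 45.8), a ratio of 0.484 (0.329 to 0.705). Without thinning the shares were 30.5% in DKO_Skp2het and 58.3% in DKO. Microglia marker cells gave 11.5% and 15.8% by the same measure, whether from free RNA or from dividing microglia.

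The order of the libraries was alike in the cells around them, with different sizes. In all other cells 45.4% of DKO_Skp2het and 57.9% of DKO cells were dividing, a ratio of 0.784 (0.738 to 0.833). The intervals of the 2 ratios did not overlap, but they cover counting error only and the difference between the ratios was not tested. Cells set aside by the Ebf3 list had 13.3% in DKO_Skp2het and 30.3% in DKO, and those set aside by the Ptf1a list 42.6% and 57.4%. Over cells of either library with at least 3420 UMIs, the Igfbpl1/Nhlh2 cells had 25.8% in DKO_Skp2het and 39.0% in DKO, a ratio of 0.662 (0.443 to 0.975).

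The dividing share came down with the number of rule genes in each library. It was 46.7% in DKO_Skp2het and 60.5% in DKO for the excluded cells with 2 rule genes, 32.2% in DKO_Skp2het and 55.6% in DKO for cells with 3 rule genes, 16.7% and 40.8% for those with 4, and 13.3% and 30.4% for those with 5 to 7. Igfbpl1/Nhlh2 cells that were not dividing made up 3.64% of all DKO_Skp2het cells and 3.67% of all DKO cells, a ratio of 0.990 (0.789 to 1.25). Dividing ones made up 0.847% and 2.35%, a ratio of 0.361 (0.245 to 0.525). By count, the gap in the share of Igfbpl1/Nhlh2 cells between the libraries lay in the dividing ones.

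**Figure D3:**
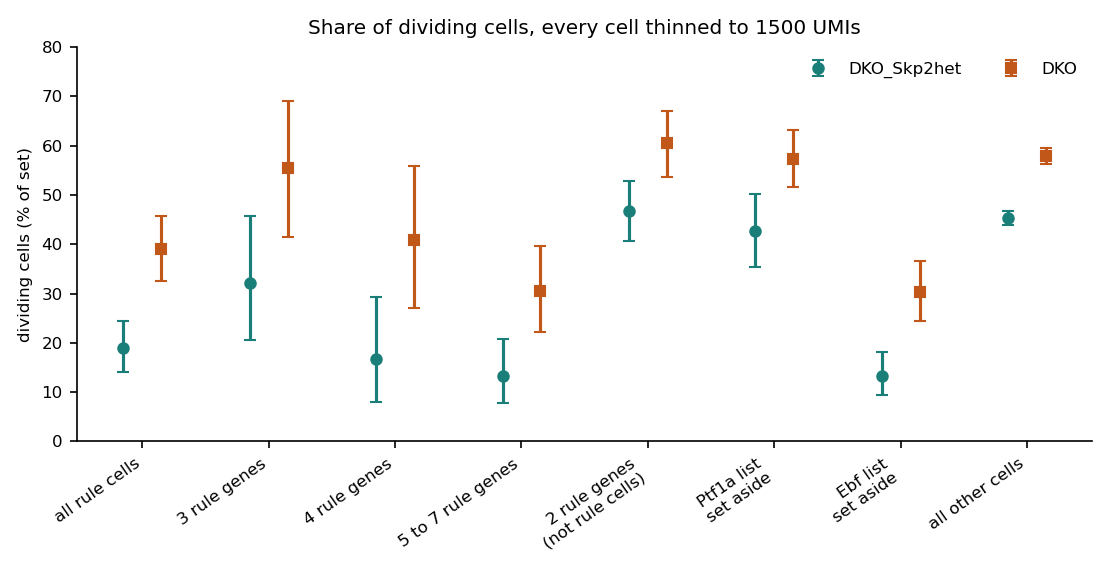
Share of dividing cells, in percent of each set, with every cell thinned to 1500 UMIs, for DKO_Skp2het (circles, left) and DKO (squares, right), with exact binomial intervals that cover counting error only. The share is 18.9% in DKO_Skp2het and 39.0% in DKO Igfbpl1/Nhlh2 cells, and the DKO_Skp2het point lies below the DKO point in each of the 8 sets.

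The dividing Igfbpl1/Nhlh2 cells were deeper and less neuronal than the others. Their median depth was 8096 UMIs in DKO_Skp2het and 6801 in DKO, against 3573 and 4328 UMIs in the other Igfbpl1/Nhlh2 cells. Immature neuron markers summed to 3910 CPM in DKO_Skp2het and 4492 CPM in DKO dividing cells, against 6626 and 5952 CPM in the others. Txnip had 632 and 278 CPM in the dividing cells of DKO_Skp2het and DKO, against 16.24 and 21 CPM in the others, and Zfp503, a zinc finger repressor gene, had 148 and 134 CPM against 5.00 and 9.80 CPM. A deep cell can reach 3 rule genes at lower CPM and doublets are deep as well, and removing the barcodes with high doublet scores took 22 (9.44%) of the DKO_Skp2het and 13 (5.96%) of the DKO Igfbpl1/Nhlh2 cells, against 4.16% and 2.901% of all barcodes. The median doublet score was 0.744 in DKO_Skp2het and 0.644 in DKO dividing Igfbpl1/Nhlh2 cells, against 0.422 and 0.333 in the others. Cells set aside by the Ptf1a list had 0.733 and 0.667, and those set aside by the Ebf3 list 0.422 and 0.511. The part of depth and of doublets in the dividing Igfbpl1/Nhlh2 cells was not tested.

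Between the libraries, 203 of the 6899 measured genes (2.94%) were at least 1.5-fold higher in DKO_Skp2het Igfbpl1/Nhlh2 cells and 214 (3.1%) at least 1.5-fold lower. The median gene stood at a log2 difference of -0.01, with 3370 of the 6899 genes above 0 and 3529 below 0. These values are the background for every list count that follows. The counts past 1.5-fold turned on the minimum level of a gene, with 651 higher and 682 lower at no minimum and 23 and 28 at 200 UMIs.

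All 8 immature neuron markers were above 0 in the difference DKO_Skp2het minus DKO, with a median log2 difference of 0.30, and 3 of the 8 passed 1.5-fold. In all other cells the same 8 lay below 0, with a median of -0.16. Stmn2, a tubulin-binding protein of growth cones, had 235 CPM in DKO_Skp2het and 120 CPM in DKO, a ratio of 1.96 (1.62 to 2.37), in 114 DKO_Skp2het and 87 DKO cells. All other cells include the set-aside neighbours, in which Stmn2 was also higher in DKO_Skp2het. It had 212 CPM in DKO_Skp2het and 163 CPM in DKO cells set aside by the Ptf1a list. In those of the Ebf3 list it had 268 and 260 CPM. Gap43, a growth cone protein, had 84.5 and 45.2 CPM, a ratio of 1.87 (1.37 to 2.58), and Dcx, a microtubule protein of migrating neurons, had 38.6 and 19.6 CPM. Tubb3, a neuronal tubulin, had 240 and 187 CPM, short of 1.5-fold, and Sox4 had 2186 and 2177 CPM. The list median was 0.15 with both libraries at the DKO minimum depth, 0.36 over cells that were not dividing, and 0.04 with 2 rule genes sufficing.

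Neighbouring groups of neuronal genes had the same sign. Of 20 cytoskeleton and growth cone genes, 16 lay above 0 (median 0.29) and 4 passed 1.5-fold higher, among them Tubb2b, a tubulin, with 532 CPM in DKO_Skp2het and 345 CPM in DKO. Map1b, a microtubule-associated protein, went the other way with 284 and 365 CPM. Of 20 synapse and excitability genes, 16 lay above 0 (median 0.25) and 3 passed. Rab3a, a GTPase of synaptic vesicles, had 386 CPM in DKO_Skp2het and 241 CPM in DKO, a ratio of 1.60 (1.39 to 1.84). Cplx2, a complexin, had 112 and 162 CPM.

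Amacrine transcription factors lay above 0 for 13 of 15 measured genes (median 0.19, against -0.24 in all other cells). Bhlhe22, a bHLH factor of amacrine and some bipolar cells, had 231 CPM in DKO_Skp2het and 126 CPM in DKO, a ratio of 1.84 (1.53 to 2.22). Meis2, a homeobox factor of amacrine cells, had 136 and 76.0 CPM, and Pax6, which amacrine cells keep, had 551 and 481 CPM. Of 10 genes of inhibitory transmission 7 lay above 0 (median 0.31) and 3 passed. Slc32a1, the vesicular carrier of GABA and glycine, had 69.7 and 44.5 CPM, and Glra2, a glycine receptor subunit, had 126 and 79.3 CPM. Gad2, which makes GABA, stood at 161 and 163 CPM, and Gad1 had 9 UMIs in DKO_Skp2het and 5 in DKO.

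Among 21 neuronal differentiation factors 16 lay above 0 (median 0.13) and 2 passed. Myt1l, a zinc finger factor that keeps neuronal identity, had 73.9 CPM in DKO_Skp2het and 40.0 CPM in DKO. Neurod1, a bHLH factor of photoreceptors and amacrine cells, had 613 and 867 CPM, with a ratio of 0.707. Of 12 axon guidance and adhesion genes 8 lay above 0, with a median of 0.19, and 2 passed higher, but this median turned negative with at least 4 rule genes and over cells that were not dividing, down to -0.15.

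Genes of precursors and progenitors lay on the other side. All 10 measured photoreceptor and bipolar precursor genes were below 0 (median -0.37, against -0.09 in all other cells), and 2 passed 1.5-fold lower. Otx2 had 395 CPM in DKO_Skp2het and 596 CPM in DKO, a ratio of 0.662 (0.592 to 0.740). Nrl, the rod fate factor, had 73.0 and 111 CPM. This list kept its sign over cells that were not dividing, with a median of -0.60.

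The neurogenic progenitor list had 10 of 13 genes below 0 (median -0.20, against 0.15 in all other cells) and 4 lower past 1.5-fold. Mfng, a glycosyltransferase that tunes Notch, had 14.8 CPM in DKO_Skp2het and 34.1 CPM in DKO, Olig2, a bHLH factor of neurogenic progenitors, had 27.1 and 48.5 CPM, and Neurog2, a proneural factor, had 79.6 and 125 CPM. The median stood at -0.01 over cells that were not dividing, and at 0.56 when cells were thinned before the rule. Notch pathway genes were below 0 for 10 of 12 (median -0.13), with Hes1, a repressor that Notch switches on, at 64.8 and 105 CPM. The Notch median also turned positive when cells were thinned before the rule or when 2 rule genes sufficed, up to 0.30.

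**Figure D4:**
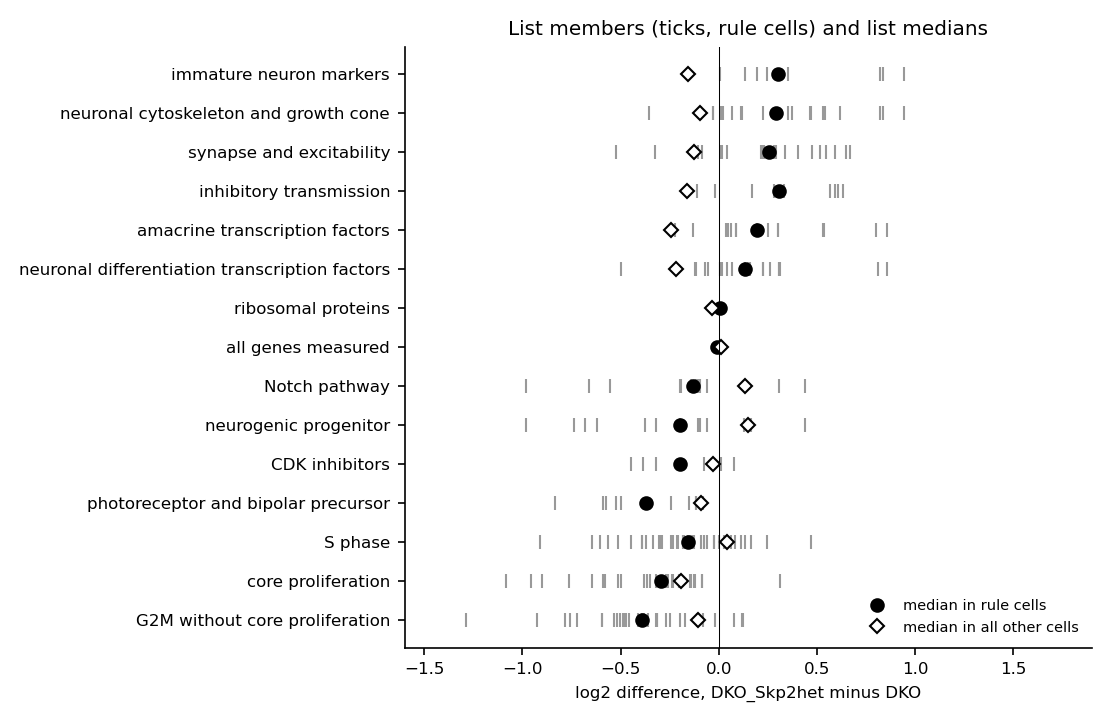
log2 difference in CPM + 5, DKO_Skp2het minus DKO, for 14 gene lists, beside all genes measured. Ticks are list members in Igfbpl1/Nhlh2 cells and are not drawn for the ribosomal protein genes. Filled circles are list medians in Igfbpl1/Nhlh2 cells and open diamonds those in all other cells. Neuronal lists lie right of 0 with the immature neuron markers at 0.30, and precursor and cell cycle lists lie left with the precursors at -0.37; ribosomal protein genes are at 0.01 and all genes at -0.01.

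Most cell cycle genes had lower levels in the DKO_Skp2het cells, beside the lower dividing share. Of the 26 core proliferation genes 25 lay below 0 (median -0.29, against -0.19 in all other cells) and 6 passed 1.5-fold lower. Cdc20, an activator of the anaphase-promoting complex, had 49.2 CPM in DKO_Skp2het and 110 CPM in DKO, a ratio of 0.447, and Ccnb1, the mitotic cyclin B1, had 61.5 and 108 CPM. Cdk1, the mitotic kinase, was the exception with 130 and 103 CPM. With both libraries at the DKO minimum depth the median of the list was -0.05. Of 32 further genes of the G2 and M phases 29 lay below 0 (median -0.39), with the phosphatase gene Cdc25c at 13.9 and 41.3 CPM, and of 41 S phase genes 33 lay below 0 (median -0.16) and 3 passed. Among all 6899 genes measured, 3529 lay below 0 and 3.1% passed 1.5-fold lower.

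E2F genes and CDK inhibitors, which act beside the deleted pocket proteins, were mixed. Of 10 E2F and pocket protein genes 6 lay below 0 (median -0.25) and 3 passed lower. E2f7, a repressor E2F, had 24.6 CPM in DKO_Skp2het and 53.1 CPM in DKO, E2f2 had 36.1 and 66.2 CPM, and E2f1 had 144 and 212 CPM. None of the 6 measured CDK inhibitors passed 1.5-fold, beside 2.94% of all genes measured that passed higher and 3.1% lower. Cdkn1b, which encodes the Skp2 substrate p27, had 68.1 CPM in DKO_Skp2het and 67.5 CPM in DKO, a ratio of 1.01. Cdkn1c, the p57 gene, had 139 and 183 CPM, a ratio of 0.759 (0.623 to 0.922), against 1.21 in all other cells. Cdkn1a, the p21 gene, had 627 and 593 CPM. Within DKO_Skp2het and DKO, Cdkn1a stood at 262 and 273 CPM in cells with 5 to 7 rule genes. In those with 3 rule genes it stood at 1490 and 1075 CPM. Dividing Igfbpl1/Nhlh2 cells had 1491 and 966 CPM of Cdkn1a, and the others 176 and 169 CPM. Of its 764 DKO_Skp2het UMIs, 116 came from 1 cell.

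None of the 7 genes of the Skp2 ligase and the 9 of the SOCS box family (median -0.02) passed 1.5-fold. The same held for the 5 of the insulin-like growth factor system (median -0.22). Among all 6899 genes measured 2.94% passed higher and 3.1% lower, so 0 in lists this small says little. Igf1r, the receptor for insulin-like growth factor 1, had 115 CPM in DKO_Skp2het and 141 CPM in DKO. Of 12 p53 target genes 1 passed higher (median 0.01), and of 10 apoptosis genes 0 passed (median 0.03). The 10 immediate early genes, which dissociation can induce, had a median of 0.08 in the Igfbpl1/Nhlh2 cells, against 0.26 in all other cells. Of 5 bipolar cell genes 3 passed 1.5-fold lower (median -0.66, against 0.21 in all other cells), though the median turned positive with at least 2 or at least 4 rule genes, up to 0.17. Rod and cone lists had medians of 0.05 each, which turned negative in 4 of 15 and 7 of 14 settings, down to -0.53 and -0.49, and the list of 9 Müller glia genes had a median of -0.03, which turned positive in 4 of 15 settings, against 0.29 in all other cells.

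The 12 genes with the largest differences in each direction, among those with at least 100 UMIs, mixed differences found across the whole library with ones seen in these cells. Cwc22, a splicing factor gene on chromosome 2 from 77881159 to 77946375, had 71.4 CPM in DKO_Skp2het and 17.0 CPM in DKO, a ratio of 4.19 (2.68 to 6.77), and a ratio of 4.74 in all other cells. Prox1os, annotated antisense to Prox1, had 73.9 and 18.3 CPM, with a ratio of 2.65 in all other cells, and whether the counting used strand is not given in the sources used here. PISD and Zmat5 had ratios of 2.61 and 2.56, against 1.71 and 1.63 in all other cells, and PISD lies on an unplaced contig and may share reads with a near-identical copy.

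For most of the other higher genes the ratio was smaller in all other cells, and several rested on few cells. Rims1, a scaffold of the presynaptic active zone, had 114 CPM in DKO_Skp2het and 29.5 CPM in DKO, a ratio of 3.87 against 0.706 in all other cells. Of its 139 DKO_Skp2het UMIs, 63 came from 1 cell. Crabp1, a retinoic acid binding protein of amacrine cells, had 225 and 65.5 CPM, a ratio of 3.43 against 0.996, with 67 of 274 DKO_Skp2het UMIs in 1 cell. Without the top cell of each library the log2 differences were 1.57 for Rims1 and 1.38 for Crabp1. Over all settings they went down to 0.18 for Rims1, under 1.5-fold without the exclusion lists and with cells thinned before the rule. For Crabp1 they went down to 0.035, under 1.5-fold in those thinned cells and with at least 2, 4 or 5 rule genes asked for. Tmod2, which caps actin filaments in neurons, had 78.0 and 26.9 CPM (ratio 2.903, against 1.31), and Kcna2, a potassium channel, had 68.9 and 23.6 CPM (ratio 2.92, against 1.17). Snap47, Fam210b and the secretory granule gene Scg5 had ratios of 2.43, 2.18 and 1.93, against 1.35, 1.40 and 1.66. The set-aside neighbours shared some of these differences. In cells set aside by the Ptf1a list, Tmod2 had 65.2 CPM in DKO_Skp2het and 27.1 CPM in DKO, Kcna2 93.0 and 43.4 CPM, and Scg5 147 and 69.0 CPM. In those of the Ebf3 list these had 108 and 51.1, 71.6 and 53.9, and 173 and 84.0 CPM. Rims1 went the other way in both sets, with 3.90 and 10.4 CPM and with 15.4 and 48.8 CPM.

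Among the lower genes, Pola2, a subunit of DNA polymerase alpha, had 28.7 CPM in DKO_Skp2het and 89.1 CPM in DKO, a ratio of 0.322 against 1.00 in all other cells. Of its 136 DKO UMIs 46 came from 1 cell. Hopx, a homeodomain-only protein gene, had 32.8 and 77.9 CPM, with 47 of 119 DKO UMIs in 1 cell. Without the top cells the log2 differences were -1.03 for Pola2 and -0.66 for Hopx. Kdr, a receptor for vascular endothelial growth factor, had 21.3 and 53.1 CPM, a ratio of 0.402 against 1.39 in all other cells. E2f7, Cdc20, Nek2 (a centrosomal kinase, 23.8 and 49.8 CPM) and Uhrf1 (which helps copy DNA methylation, 50.9 and 100 CPM) are genes of the cell cycle. Gngt2, the cone transducin gamma subunit, had 208 and 408 CPM. Cers4, Tpm3-rs7, Zfp385b and Gpr37 had ratios of 0.441, 0.467, 0.456 and 0.489, and Tpm3-rs7 is a Tpm3-related copy that may share reads with it.

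**Figure D5:**
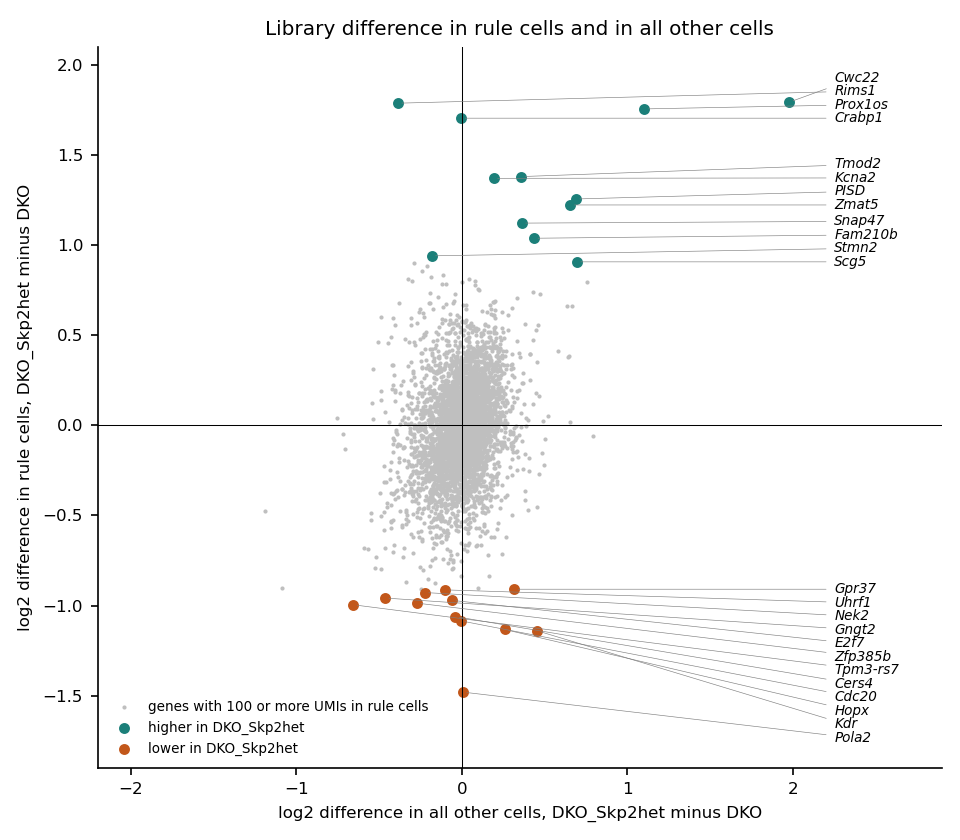
log2 difference in CPM + 5, DKO_Skp2het minus DKO, of each gene with at least 100 UMIs in Igfbpl1/Nhlh2 cells (vertical axis) against its difference in all other cells (horizontal axis), with the 12 largest differences per direction named. Cwc22 lies far right and high, with ratios of 4.19 in Igfbpl1/Nhlh2 cells and 4.74 in all other cells, whereas Rims1 and Stmn2 lie high but left of 0, and Kdr, Hopx and Gpr37 lie low but right of 0.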

How the data were processed

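Libraries were made with 10x Genomics 3′ chemistry (version 2 kit, per the labels' protocols) from papain-dissociated peripheral retinas, and processed with Cell Ranger 2.2.0 on mm10, per the submitters' processing notes. The deposited matrices hold UMI counts, whole numbers per gene and barcode that were not normalized, per the file headers. Counts of the Igfbpl1/Nhlh2 cells and of all other cells were summed per library and divided by their total to give CPM. Differences are log2 of (CPM + 5), DKO_Skp2het over DKO. Genes needed at least 50 UMIs over the cells of both libraries, and 56 symbols shared by several identifiers were kept by identifier. Intervals are exact 95% Poisson or Clopper-Pearson limits for levels and shares and conditional exact limits for ratios of UMIs. For a count of 0, the limit printed is 3 counts of the total instead.

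With 1 library per genotype no test was run. No doublets were removed in the results given; a simulated-doublet score, at 0.8% per 1000 barcodes, was an alternative. Named genes were the rule and exclusion genes, the leading 15 against all other cells, the 12 largest differences per direction with at least 100 UMIs, 2 to 4 members per list and the Skp2 and CDK inhibitor genes. The members, the 37 gene lists and the tests were chosen with earlier results of these data known. The scripts were tested on simulated data. Gene positions are from GENCODE M21, which held 27722 of the 27998 gene identifiers, and promoters from RefSeq on GRCm38.p6. Exact limits came from scipy 1.17.1 and the neighbour search of the doublet score from scikit-learn 1.9.0, run under Python 3.11.15.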

Additional observations from a re-analysis of the deposited data

Results flagged for a closer look

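For 5 of the 24 genes with the largest differences, the direction in the Igfbpl1/Nhlh2 cells was opposite to that in all other cells of the same libraries, counting only genes whose ratio in all other cells had a counting interval on the other side of 1. Crabp1 and Pola2, with ratios of 0.996 and 1.00 in all other cells, were thereby left out. Rims1 had a DKO_Skp2het over DKO ratio of 3.87 in the Igfbpl1/Nhlh2 cells and 0.706 in all other cells, on 11 DKO_Skp2het and 6 DKO cells with the gene. Stmn2 had a ratio of 1.96 against 0.876, on 114 and 87 cells. Kdr had a ratio of 0.402 against 1.39. Hopx had a ratio of 0.421 against 1.20, and Gpr37 a ratio of 0.489 against 1.26. The set-aside neighbours, which are part of all other cells, did not all go the opposite way. Stmn2 had 212 CPM in DKO_Skp2het and 163 CPM in DKO cells of the Ptf1a list, and 268 and 260 CPM in those of the Ebf3 list. Gpr37 had 11.1 and 14.4 CPM, and 17.4 and 27.2 CPM. Kdr and Hopx were lower in DKO_Skp2het in the Ptf1a list set and higher in the Ebf3 list set. Rims1 was lower in both. None of these differences between the sets of cells was tested, since each genotype had 1 library.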

How the results depend on the processing

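The ratio of shares of Igfbpl1/Nhlh2 cells ranged from 0.624 to 0.80, and the ratio of dividing shares from 0.424 to 0.679, over the settings tried. The 203 higher and 214 lower genes became 114 and 134 without the exclusion lists, 117 and 102 with cells thinned before the rule, 48 and 54 with a pseudocount of 20 CPM, 417 and 433 with a minimum of 20 UMIs, 23 and 28 with 200 UMIs, 651 and 682 with no minimum, and 15 and 15 at 2-fold. Over cells with 5 or more rule genes, a setting chosen after seeing the data like the removal of dividing or top cells, 124 were higher. Directions reversed for Kdr (0.65), Hopx (0.012) and Gpr37 (0.21) with 2 rule genes sufficing, for Kdr (0.65), Hopx (0.42), Zfp385b (1.36) and Gpr37 (0.40) with cells thinned before the rule, and for Pola2 (0.40) without dividing cells, as log2 differences. The cause was not tested. Median-of-ratios scaling shifted all genes by -0.01. Immature neuron, synapse, amacrine factor, precursor and proliferation medians kept their sign in 15 of 15 settings, but came as near to 0 as 0.04, 0.02, 0.02, -0.12 and -0.05. No paired analysis was possible because each genotype had 1 library. At these depths, counting error leaves many genes near the 50 UMI minimum on either side of 1.5-fold.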
